A study of Drosophila melanogaster with 2 samples.

Results

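The 10 genes described here encode core parts of the Wnt pathway of Drosophila melanogaster: wg, fz, fz2, arr, Axn, Apc, sgg, arm, pan and nkd. They were taken by name, from 13945 protein-coding genes of the Ensembl annotation of the dm6 assembly, and all 10 were found. The measurement was chromatin immunoprecipitation with sequencing of Psq (pipsqueak), a BTB-domain protein known to bind GAGA-type repeats, which was tagged with GFP. Whole embryos aged 0 to 24 hours, with the sexes mixed, came from a single transgenic line, psq-GFP, whose transgene adds GFP to the C terminus of Psq. Chromatin was precipitated with an antibody to GFP, although the labels' antibody field names psq. There was 1 group of 2 biological replicates, numbered 3 and 4, and both carried the transgene. The sources used here give neither the promoter that drives it nor the state of the endogenous psq gene. Without another condition, the values describe where tagged Psq was found along these genes, and no test between groups was possible. Whole embryos mix all cell types, so a weak peak in many cells and a strong peak in few cells cannot be told apart.

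Wnt proteins are secreted signals that pattern the embryonic segments. In Drosophila the ligand Wingless, encoded by wg, binds a Frizzled receptor (fz or fz2) together with the LDL-receptor-related coreceptor encoded by arr. Without the signal, a destruction complex built on the scaffolds Axin (Axn) and APC (Apc) holds the kinase encoded by sgg (GSK-3), which marks Armadillo for degradation. Armadillo, the beta-catenin encoded by arm, accumulates once the signal arrives and acts in the nucleus with the DNA-binding TCF protein encoded by pan. The nkd gene encodes a cytoplasmic antagonist whose transcription the pathway itself induces.

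A summit, the position of highest signal in a peak, was given to a gene when it lay in the gene or up to 2 kb upstream of it. The authors' reproducible set, thresholded on the irreproducible discovery rate (IDR), held 2999 peaks. Their longer list, called on both replicates together, held 30000 peaks and by its own description includes background. The score of a peak is the authors' own statistic, on a scale of its own in each list, and rank 1 is the strongest peak of a list. Of the 10 genes, 6 held an IDR summit (fz, fz2, arr, sgg, pan and nkd), and together they held 14. Of all protein-coding genes, 20.3% held one by the same rule. The genes wg, Axn, Apc and arm held 0. The pooled list placed 176 summits at the 10 genes, at least 2 at each. Of all protein-coding genes, 68.5% held a pooled summit.

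The stretches below show the sequence around the summits on which the description turns. They are the strongest of the set, in sgg, both strong sites of fz, the promoter of nkd, an internal promoter of pan, and the weakest IDR site, in fz2. Each covers 100 bp on both sides of the summit and is read from the plus strand of the RefSeq dm6 sequence, 5' to 3'. Capitals mark GAGAG, the repeat bound by Psq and GAGA factor, and CTTTGA, the core of the TCF recognition sequence, on either strand (CTCTC and TCAAAG on the opposite one).
sgg internal start, chrX:2646354-2646554: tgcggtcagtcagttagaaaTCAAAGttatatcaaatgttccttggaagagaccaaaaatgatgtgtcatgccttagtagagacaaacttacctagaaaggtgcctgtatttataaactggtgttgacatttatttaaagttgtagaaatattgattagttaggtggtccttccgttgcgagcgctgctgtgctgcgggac
fz upstream, chr3L:14272493-14272693: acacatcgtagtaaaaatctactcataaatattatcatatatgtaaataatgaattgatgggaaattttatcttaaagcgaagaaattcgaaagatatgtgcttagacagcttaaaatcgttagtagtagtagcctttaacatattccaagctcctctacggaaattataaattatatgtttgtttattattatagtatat
fz intron, chr3L:14304003-14304203: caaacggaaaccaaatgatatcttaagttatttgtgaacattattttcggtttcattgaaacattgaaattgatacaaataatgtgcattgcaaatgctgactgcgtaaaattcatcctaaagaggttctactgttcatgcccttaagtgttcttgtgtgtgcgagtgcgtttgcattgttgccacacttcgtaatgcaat
nkd promoter, chr3L:19045500-19045700: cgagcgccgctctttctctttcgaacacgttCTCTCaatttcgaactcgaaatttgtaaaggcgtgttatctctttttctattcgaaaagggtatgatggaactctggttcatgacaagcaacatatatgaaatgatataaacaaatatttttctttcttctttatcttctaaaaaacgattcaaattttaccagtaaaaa
pan promoter, chr4:70136-70336: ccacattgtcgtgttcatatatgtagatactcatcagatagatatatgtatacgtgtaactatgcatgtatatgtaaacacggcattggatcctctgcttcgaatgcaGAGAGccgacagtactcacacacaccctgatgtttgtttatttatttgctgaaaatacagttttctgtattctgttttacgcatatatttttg
fz2 intron, chr3L:19169106-19169306: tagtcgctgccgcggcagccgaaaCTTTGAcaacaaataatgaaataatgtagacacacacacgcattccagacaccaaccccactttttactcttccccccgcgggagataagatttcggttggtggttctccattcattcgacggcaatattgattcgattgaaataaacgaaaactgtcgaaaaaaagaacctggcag

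**Figure D1:**
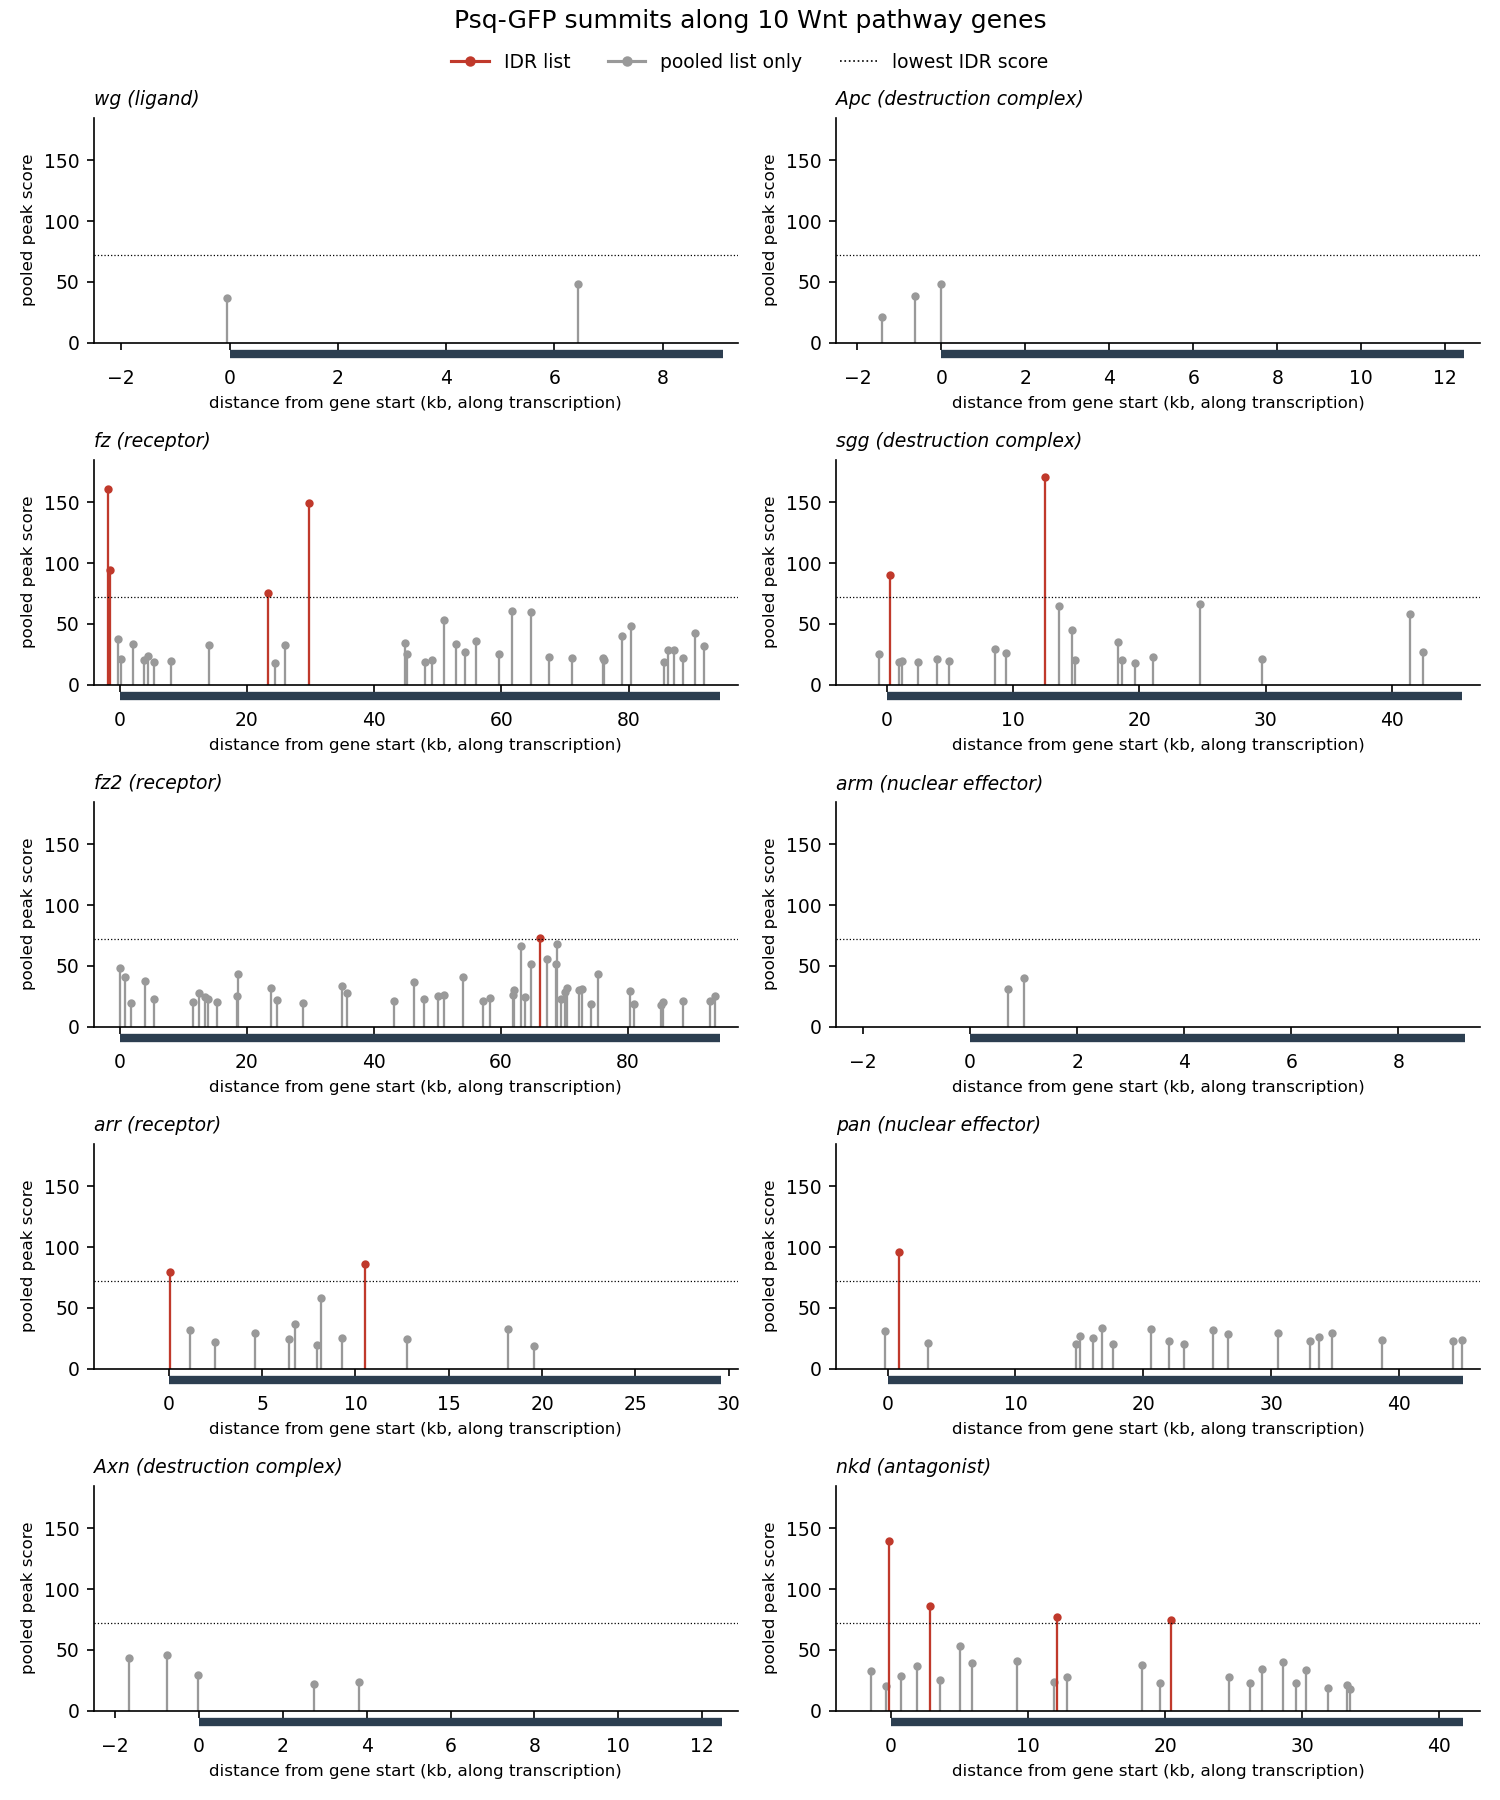
Height of each pooled peak (the authors' score, vertical axis) at its summit's distance from the start of the gene in kb along transcription (horizontal axis), with 1 panel per gene, IDR summits in red, other pooled summits in grey, and the gene as a dark bar. The dotted line is the lowest IDR score, 72.5, which no summit of wg, Axn, Apc or arm reached, while fz and nkd had 4 summits each above it.

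The ligand gene wg (FBgn0284084, 2L, 7307159 to 7316265, plus strand, 9.11 kb) had no IDR summit. Its pooled summits were 2. The stronger lay in an intron 6434 bp from the start, with a score of 48.3 and rank 5603 (7313373 to 7313812). It was found at rank 5744 in replicate 3 and 5660 in replicate 4, so both replicates placed it at nearly the same depth of their lists. The other summit lay 53 bp upstream of the transcription start site (TSS), with a pooled score of 36.8. The wg gene sits in a cluster with 3 other Wnt ligand genes. From the start of Wnt4 to the end of Wnt10 (7255419 to 7377528, 122 kb) there were 2 IDR summits, or 0.164 per 10 kb, against 0.224 per 10 kb over all arms. The first was in an intron of Wnt4, with a score of 78.0, and the second 436 bp upstream of the Wnt6 TSS, with a score of 75.0. The same 122 kb held 38 pooled summits, or 3.11 per 10 kb against 2.24 over all arms.

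The receptor gene fz (FBgn0001085, 3L, 14274343 to 14368639, plus strand, 94.3 kb), which also acts in planar cell polarity, had 4 IDR summits. Upstream of the gene, a summit 1750 bp from the TSS (14272373 to 14272812) had a pooled score of 161 and rank 736. Its strongest overlapping peak scored 83.4 in replicate 3 (rank 623) and 80.3 in replicate 4 (rank 852). A neighbouring summit 1549 bp upstream (14272574 to 14273013) scored 93.9. Its interval overlaps the first, and the strongest overlapping peak in each replicate is that of the first. Each replicate also had a separate peak at this second summit, 3 bp away in replicate 3 (score 45.4, rank 1965) and 15 bp away in replicate 4 (score 51.8, rank 1918). The second strong site was in an intron, 29760 bp from the start and 22148 bp from the nearest TSS, that of lncRNA:CR45025 (14303883 to 14304322). It had a pooled score of 149 and rank 818, with scores of 62.5 in replicate 3 (rank 1090) and 87.9 in replicate 4 (rank 711). The fourth, 23389 bp into the gene (14297512 to 14297951), was near the threshold, at 75.8. It rested mostly on replicate 4, with rank 2027 there and rank 6946 in replicate 3. No IDR summit of fz lay within 500 bp of its single annotated TSS, and the nearest pooled summits to the start stayed below the threshold.

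Beyond 60 kb from its start, fz held 14 pooled summits, none of them in the IDR list. The strongest overlapping peak ranked higher in replicate 3 for 7 of them, and for the other 7 it ranked higher in replicate 4 or was found in that list alone (3 of the 7). The highest in the pooled list, at 61741 and 64700 bp from the start, had pooled scores of 60.3 and 60.01. In replicate 3 they had ranks 2909 and 2662, inside the 2999 strongest of that list. In replicate 4 they had ranks 11268 and 15798.

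The receptor gene fz2 (FBgn0016797, 3L, 19140975 to 19235373, minus strand, 94.4 kb) is nearly as long as fz and had 48 pooled summits against 37 in fz. A single one was in the IDR list, just inside the threshold, with a score of 72.7 and rank 2985 (19168986 to 19169425). It lay in an intron, 1442 bp downstream of an internal TSS. Its strongest overlapping peaks had rank 4580 in replicate 3, with a score of 27.5, and rank 2587 in replicate 4, with a score of 44.0. The member summits just outside the threshold were in fz2 too, at pooled scores of 68.1 (rank 3327, 4146 bp downstream of the same TSS) and 66.7 (rank 3442, 1532 bp upstream of it). Weaker summits gathered around this internal start. Within 5 kb of the IDR summit the pooled list held 12 summits, itself included, more than around any other IDR summit of the set. The median over all 2999 IDR summits was 6, and the 90th percentile was 10. The TSS itself had a pooled summit 26 bp downstream, with a score of 52.0.

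The coreceptor gene arr (FBgn0000119, 2R, 13453640 to 13483229, minus strand, 29.6 kb) had 2 IDR summits. The stronger was intronic, 10516 bp from the arr TSS and 4629 bp from the nearest TSS, that of CG43192 (13472493 to 13472932). It had a pooled score of 86.3. Its ranks were 2362 in replicate 3 and 2354 in replicate 4, with scores of 41.0 and 46.5. These are the strongest overlapping peaks, with summits 198 bp from the pooled one in replicate 3 and 5 bp in replicate 4. Replicate 3 also had a peak with its summit 2 bp away, at a score of 37.5 and rank 2759. The other summit marked the promoter, 57 bp downstream of the TSS (13482952 to 13483391). It had a pooled score of 79.1, with rank 5630 in replicate 3 and 2650 in replicate 4. The 2 IDR summits of arr were thus of similar pooled height, and the promoter one ranked lower in replicate 3.

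In the destruction complex, sgg had IDR summits and the scaffold genes had none. The sgg gene (FBgn0003371, X, 2633952 to 2679553, plus strand, 45.6 kb) has 11 annotated TSSs. Its IDR summit at an internal TSS, 183 bp upstream of it and 12502 bp into the gene (2646234 to 2646673), was the strongest of all 10 genes, with a pooled score of 171 and rank 653. It scored 95.2 in replicate 3 (rank 466) and 76.2 in replicate 4 (rank 951), and its summit moved by 4 and 0 bp between the pooled list and these replicates. The other sgg summit was at the start of the gene, 31 bp upstream of a TSS (2633964 to 2634403). It had a pooled score of 90.2, with rank 3821 in replicate 3 and 1348 in replicate 4. A pooled summit 28 bp downstream of a further internal TSS, with a score of 66.6 and rank 3454, fell short of the threshold. Of the 21 pooled summits of sgg, 6 lay within 500 bp of a TSS of any gene, and 2 of these were in the IDR list. That with a score of 58.1 lay 49 bp from the TSS of the non-coding gene lncRNA:CR45197 and 7577 bp from the nearest sgg TSS.

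Axn (FBgn0026597, 3R, 30022842 to 30035311, plus strand, 12.5 kb) had 5 pooled summits. The highest, with a score of 45.8 and rank 6098, lay 753 bp upstream of the Axn TSS but 132 bp from a TSS of Mgat2, the neighbouring gene. At the Axn TSS itself, 18 bp upstream, the pooled score was 29.4, and replicate 3 had no overlapping peak there. Apc (FBgn0015589, 3R, 28832301 to 28844748, minus strand, 12.4 kb) had 3 pooled summits. Its highest lay 14 bp upstream of the TSS, with a pooled score of 48.2 and rank 5631. That peak stood at rank 4016 in replicate 3 and 10655 in replicate 4. A summit 637 bp upstream of Apc, with a score of 38.4, was nearer to a TSS of spg, at 85 bp. The Apc TSS thus had a weak peak, and that at the Axn TSS was weaker and lacked an overlapping peak in replicate 3. The authors' IDR step kept neither.

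Of the nuclear effectors, pan had an IDR summit and arm had none. The pan gene (FBgn0085432, chromosome 4, 69326 to 114270, plus strand, 44.9 kb) had its summit 169 bp upstream of an internal TSS (70016 to 70455). This summit lay 910 bp into the gene and had a pooled score of 95.9 and rank 1869. It scored 40.4 in replicate 3 (rank 2411) and 56.6 in replicate 4 (rank 1652), and both replicate summits lay 1 bp away. The rest of pan held 19 weaker pooled summits, none above a score of 33.4. That 169 bp upstream of the start of the gene scored 30.9 (rank 11817). In coding exons lay 5 of the 19. No other gene of the set had a pooled summit in a coding exon. The arm gene (FBgn0000117, X, 1891401 to 1900646, minus strand, 9.25 kb) had 2 pooled summits, both within 500 bp of a TSS. The higher, 38 bp upstream of a TSS, had a score of 40.1 and rank 7488, the lowest maximum of the 10 genes. Every IDR peak carries the capped −log10 q of 3.87. Some pooled peaks outside the IDR list carry it too, such as those of fz2 at a score of 68.1 and sgg at 66.6. The authors' value was 1.27 for this arm peak, 1.73 for the highest Axn peak, 1.95 for that of Apc and 1.96 for that of wg. For both arm summits the highest peak overlapping in a replicate was 1 and the same, at rank 8409 in replicate 3 and 8429 in replicate 4.

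The antagonist gene nkd (FBgn0002945, 3L, 19003741 to 19045449, minus strand, 41.7 kb) had 4 IDR summits, or 0.915 per 10 kb of the gene and its upstream 2 kb, the highest density of the set. Its promoter summit lay 151 bp upstream of the single annotated TSS (19045380 to 19045819), with a pooled score of 139 and rank 941. The replicates placed it at ranks 1000 and 962, in replicates 3 and 4, with scores of 65.2 and 75.6 and summits 0 and 1 bp from the pooled one. An intronic summit 2805 bp into the gene (19042424 to 19042863) had a score of 86.2, with ranks 2779 in replicate 3 and 1898 in replicate 4. Another, 12117 bp from the TSS (19033112 to 19033551), scored 77.2 and lay in an exon of the non-coding gene lncRNA:CR45940, 568 bp from its TSS. It ranked 2827 in replicate 3 and 3184 in replicate 4. The fourth lay 20390 bp from the nkd TSS and 8841 bp from that of lncRNA:CR45940 (19024839 to 19025278). It scored 74.9, with ranks 4095 in replicate 3 and 2263 in replicate 4. The pooled scores of these 4 summits were lower the farther they lay from the start of nkd, but the last 2 were close. Replicate 3 kept this order. Replicate 4 did not, with a score of 39.1 at 12117 bp and 47.2 at 20390 bp.

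The nkd and fz2 genes lie near each other on 3L, with other genes between them. Over the stretch that holds both (19003741 to 19235373, 232 kb) there were 8 IDR summits, or 0.345 per 10 kb. Besides the 5 in nkd and fz2, 2 lay at Mkp3, which encodes a MAP kinase phosphatase, with scores of 110 and 106, and 1 at the promoter of Naxd, with a score of 80.6. Pooled summits numbered 110, or 4.75 per 10 kb against 2.24 over all arms.

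Ordered by their strongest pooled peak, the genes ran sgg (171), fz (161), nkd (139), pan (95.9), arr (86.3), fz2 (72.7), wg (48.3), Apc (48.2), Axn (45.8) and arm (40.1). The order of the first 2 was not fixed. In replicate 3 the sgg peak ranked 466 and the fz peak 623, while in replicate 4 the sgg peak ranked 951 and the fz peak 852. The nkd peak, at ranks 1000 and 962, was behind both in each replicate. The peaks of wg, Apc and Axn had close scores, and their order also changed between replicates. Apc ranked 4016 and wg 5744 in replicate 3, against 10655 and 5660 in replicate 4.

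**Figure D2:**
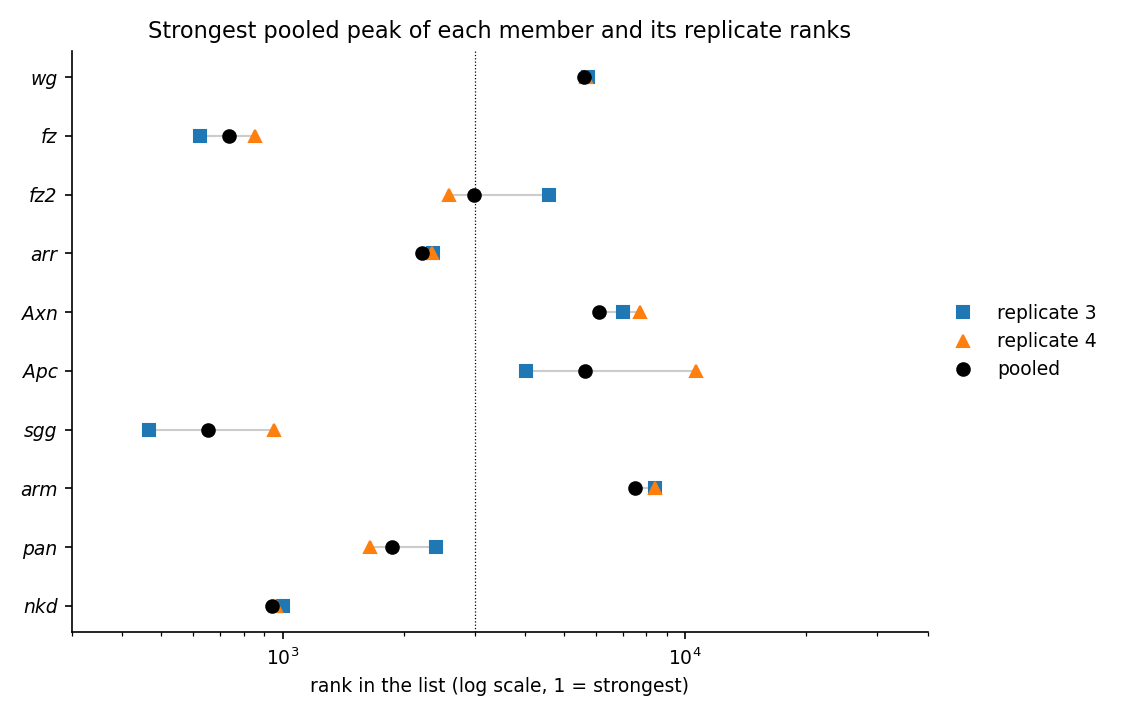
Rank of the strongest pooled peak of each gene (black circles) and of its strongest overlapping peak in replicate 3 (blue squares) and replicate 4 (orange triangles), on a log axis where 1 is the strongest. The dotted line is rank 2999, and wg, Axn, Apc and arm lie to its right in all 3 lists.

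All 14 IDR peaks of the set were overlapped by at least 1 bp in both replicates' lists of 30000 peaks. The authors derived the IDR list from such lists and kept peaks on which the replicates agree, so this overlap is built into it. The counts that follow were not made over all 2999 IDR peaks, so they describe these 14 and show nothing particular to the set. The strongest overlapping peak was among the 2999 strongest for 9 of them in replicate 3, for 13 in replicate 4, and for 8 in both. The exception in replicate 4 was the nkd peak at lncRNA:CR45940. In replicate 3 the exceptions were the weaker peaks of fz, fz2, arr, sgg and nkd described above, and the lowest of them was the fz peak at rank 6946. The peak stood higher in replicate 4 for 10 of the 14 and higher in replicate 3 for the other 4. Its summit had a median distance from the pooled one of 15 bp in replicate 3 and 5 bp in replicate 4. When the nearest replicate summit was taken in its place, the largest distance was 91 bp, 8 of the 14 were again among the 2999 strongest in both, and 11 stood higher in replicate 4. Taken alone, the 2999 strongest peaks of replicate 4 gave 15 summits in the same 6 genes, with 2 in fz2 and 3 in sgg. Those of replicate 3 gave 12 summits in 5 genes, with 5 in fz and 0 in fz2.

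**Figure D3:**
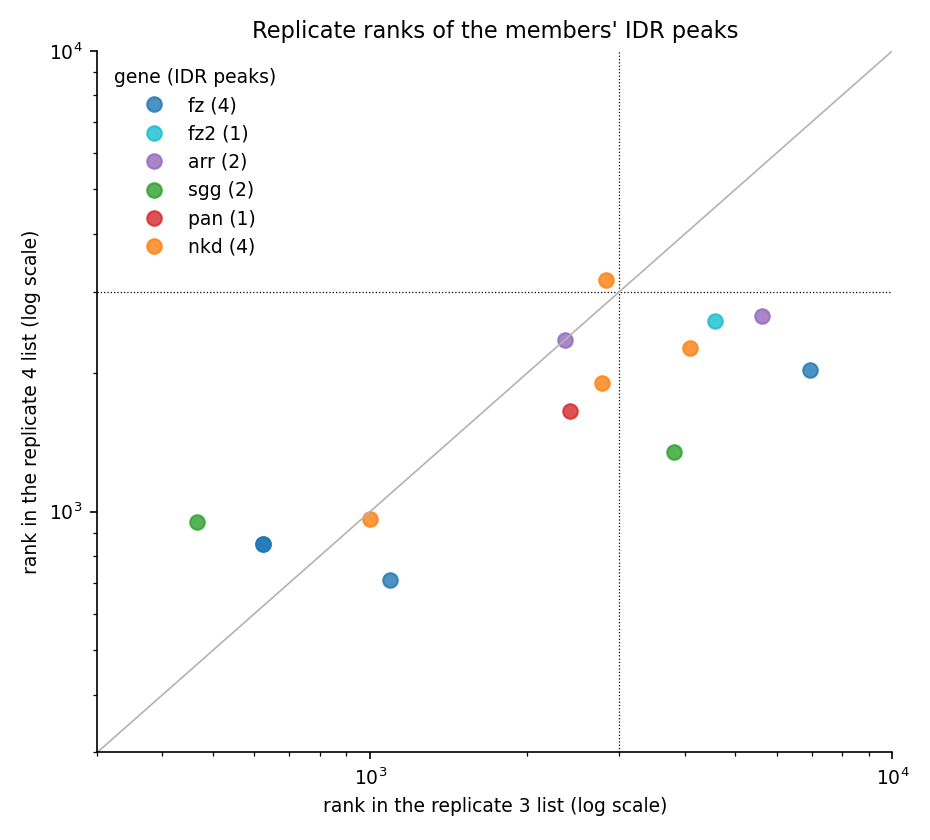
Rank of the strongest overlapping peak in replicate 3 (horizontal, log scale) and replicate 4 (vertical, log scale) for the 14 IDR peaks, coloured by gene. Both upstream fz summits fall on 1 point, dotted lines mark rank 2999, the grey line marks equal ranks, and 5 points lie right of the vertical dotted line.

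The IDR summits of the set were mostly modest in height. Their median score was 88.2, against 108 over all IDR peaks, and 4 of the 14 were among the 1499 strongest of the list, while 10 were not. Those 4 were the sgg internal start, both strong fz sites and the nkd promoter. By position, 5 of 14 (35.7%) lay within 500 bp of a TSS, 6 (42.9%) in introns, 2 (14.3%) between genes, both upstream of fz, and 1 in the lncRNA:CR45940 exon. Over all IDR summits these shares were 55.8%, 31.8% and 9.17% for promoters, introns and intergenic positions. The 5 promoter summits belonged to arr, pan, nkd and sgg, which had 2. So 4 of the 10 genes had an IDR summit at an own TSS, against 14.1% of all protein-coding genes. These 4 are all over 20 kb long, while 10461 of all 13945 genes are under 5 kb. They have 11 (sgg), 4 (pan), 1 (arr) and 1 (nkd) annotated TSSs. No share was computed for genes of like length or number of TSSs. Among the 176 pooled summits of the set, 129 (73.3%) were intronic and 27 (15.3%) at promoters, against 40.8% and 31.0% of all pooled summits. Summits of the set could lie only in a gene or up to 2 kb upstream of it, while 16.8% of all pooled summits were intergenic. Of the 129 intronic ones, the long genes fz and fz2 held 33 and 40. The shares of IDR summits rest on few summits, and none of these shares was tested.

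Gene length separated the genes with an IDR summit from those without. The 6 genes with one were 29.6 to 94.4 kb long, and the 4 without were 9.11 to 12.5 kb long. Among all protein-coding genes, 32.5% of those of 5 to 20 kb held an IDR summit, which is the class of wg, Axn, Apc and arm. The share was 39.2% at 20 to 50 kb, the class of arr, sgg, pan and nkd, and 46.9% at 50 kb and over, the class of fz and fz2. Genes with 4 or more IDR summits made up 0.939% of all genes, but 6.94% of those of 20 to 50 kb, such as nkd, and 12.7% of those of 50 kb and over, such as fz. The protein-coding genes nearest in length to nkd were Tmtc1, with 0 IDR summits, and grh, which encodes the epidermal factor Grainyhead, with 2. Those nearest to fz were fz2 and heca, with 1 each. The median gene of either long class had 0.

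Per length, the 10 genes together had 0.338 IDR summits per 10 kb of covered sequence, against 0.279 for all other protein-coding genes. The 6 genes of 20 kb and over, which are the 6 with an IDR summit, had 0.386 per 10 kb, against 0.192 for the other 1007 genes of that length. The 4 genes under 20 kb had 0, against 0.38 for the other genes under 20 kb. Of the pooled list the 6 long genes held 4.52 summits per 10 kb, against 2.19, and the 4 short ones 2.34, against 3.01. The set was thus denser than other genes in the long class and sparser in the short class, and these densities were not tested. By gene, pooled density ran from 1.78 per 10 kb in arm to 5.72 in nkd. The gene fz2 combined a high pooled density, 4.98 per 10 kb, with a low IDR density, 0.104 per 10 kb. Outside the IDR list the set's pooled peaks had a median score of 26.3, against 25.7 over all such peaks.

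**Figure D4:**
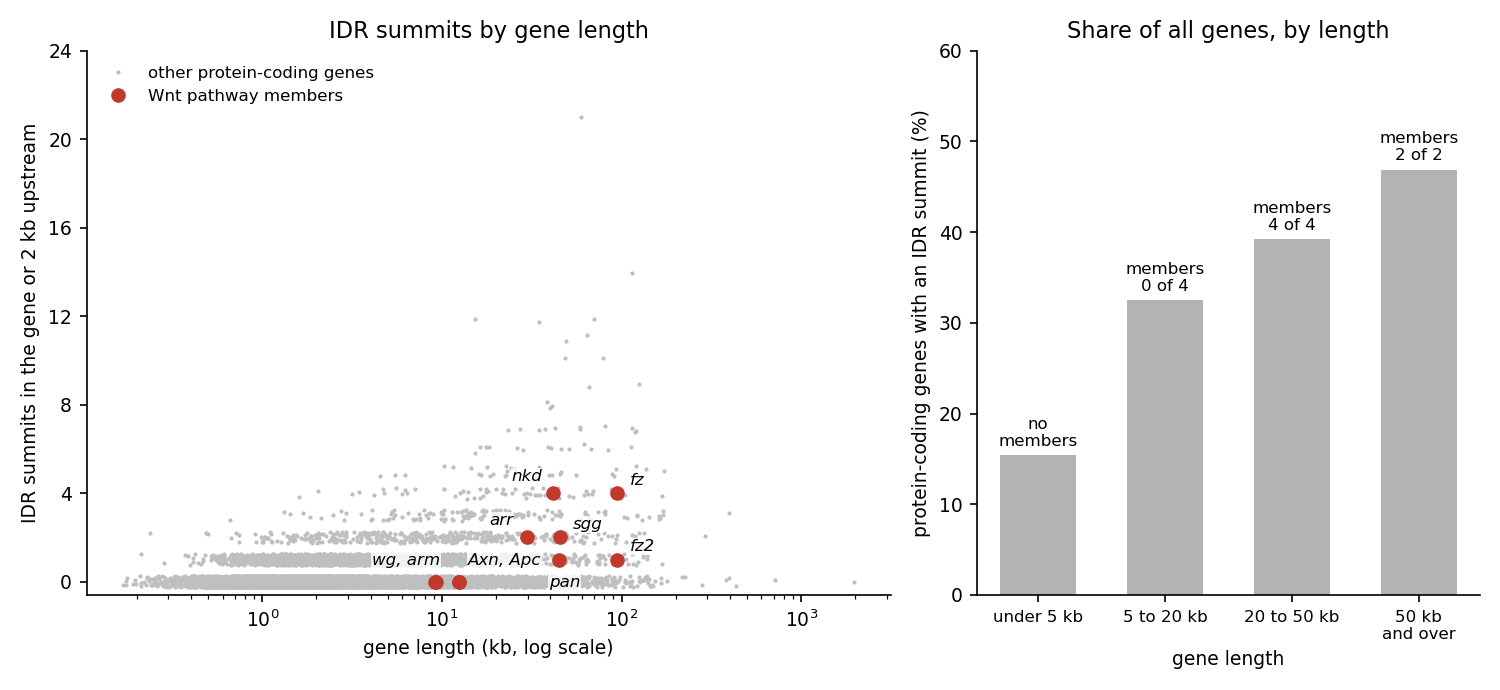
Left, IDR summits in the gene or 2 kb upstream (vertical, shifted slightly at random for the grey genes) against gene length in kb on a log axis, with the 10 Wnt genes in red and all other protein-coding genes in grey. Right, percent of all protein-coding genes with an IDR summit in each length class, with the members of the set counted above the bars (4 of 4 at 20 to 50 kb, 0 of 4 at 5 to 20 kb).

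GAGAG was found as often at these summits as beside them. It occurred within 100 bp of 4 of the 14 IDR summits (28.6%), and of 4 of the 14 points placed 1000 bp to their left, and 4 of 14 on their right. Over all IDR summits it occurred at 33.1%, against 23.6% to the left and 23.8% to the right. The 4 summits with it were the nkd promoter, where CTCTC stands near the left edge of the sequence shown above, the pan promoter, the fz intron summit at 23389 bp, and the nkd summit at lncRNA:CR45940. The longer GAGAGAG occurred at 0 of 14, against 9.64% of all IDR summits. The strongest sites, in sgg and fz, thus had no GAGAG within 100 bp. CTTTGA occurred at 3 of 14 (21.4%), the sgg internal start, the fz2 intron and the arr intron, against 10.6% of all IDR summits. In the flanks 1000 bp away it occurred at 0 of 14 on either side, against 10.8% to the left and 11.5% to the right of all IDR summits, so over all IDR summits it was no more frequent at the summit than beside it. Among the set's 162 pooled summits outside the IDR list, 26.5% had GAGAG and 11.7% CTTTGA, against 23.4% and 11.7% of all such summits. The flanks of these 162 held CTTTGA at 17.9% on the left and 16.0% on the right, more often than the summits themselves. With 14 summits, these shares are descriptions, and a missing match says only that these letters were not in the window. The GC content within 100 bp had a median of 35.8%, against 37.8% over all IDR summits.

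A longer list of 45 other Wnt pathway genes was described by the same rule. Of these, 19 (42.2%) held an IDR summit, with 36 summits in all, against 20.3% of all protein-coding genes. The count was 12 with the 2999 strongest peaks of replicate 3 alone and 20 with those of replicate 4. By length, 4 of 17 genes under 5 kb held one, 8 of 16 at 5 to 20 kb, 6 of 9 at 20 to 50 kb and 1 of 3 at 50 kb and over. In all genes these classes had 15.4%, 32.5%, 39.2% and 46.9%. The share among the other Wnt genes was thus higher in each class up to 50 kb than in the one before, but not in the longest class, which holds 3 genes. Of 11 cytoplasmic genes, 8 held an IDR summit. They were led by gish, a casein kinase I gene, with a score of 406 at 155 bp upstream of a TSS (3R, 16280559 to 16280905), above every summit of the 10 core genes. The protein phosphatase 2A genes tws (147), mts (118) and wdb (94.5) and the casein kinase gene dco (95.6) followed. However, the mts summit was nearer to the TSS of Rack1, at 31 bp, and the wdb summit to that of CG5646, at 8608 bp. The dsh, Tnks and nmo genes held none. Apc2, another APC gene, held a promoter summit of score 77.01, where Apc held none.

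Beside the 20.3% of all protein-coding genes, 6 of 13 genes of ligands and their extracellular handling held an IDR summit. The glypican gene dlp, whose product carries Wingless at the cell surface, held 6 of them within 39.0 kb, up to a score of 119. The ligand genes Wnt4, Wnt5 and Wnt6 had 1 each, the Wnt5 one inside the neighbouring gene Ggt-1, and Notum, which encodes an extracellular Wnt-inactivating enzyme and is a pathway target as nkd is, had 1 with a score of 81.3. Of 9 receptor genes, fz4 (170), dnt (272) and otk (81.7) held one, dnt with 4 summits. Of 8 nuclear cofactor genes, gro, which encodes the corepressor Groucho that binds TCF, had 2 summits up to 177. The acetyltransferase gene nej had 4 up to 181, but that summit was nearer to the TSS of lncRNA:CR42657, at 461 bp, than to that of nej, at 662 bp. The genes lgs and pygo, whose products act with Armadillo, had 0. None of the 4 planar polarity genes with which fz acts, stan, Vang, pk and dgo, held one. Of these, pk is 72.7 kb and stan 47.8 kb long, and Vang and dgo are under 5 kb. Among all protein-coding genes the share was 46.9% at 50 kb and over, 39.2% at 20 to 50 kb and 15.4% under 5 kb. Most genes of these lengths thus held none.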

How the data were processed

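The members and gene lists were chosen with earlier results of these data known. The authors deposited, per the text files beside the samples, relaxed lists of peaks and background called on each replicate and on both pooled against a control, and an optimal IDR list derived from these. The sources used here do not name the aligner, the caller, their versions or the IDR threshold. In column 7, the deposited peak score is the authors' caller statistic, used within a list only. The deposited −log10 q is capped, at 3.87 for every IDR peak, so it could not rank them. The lists hold no read numbers, so depth and the precision it gives are unknown.

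Coordinates are dm6, written 1-based. The summit is the start plus the deposited offset. Gene models came from Ensembl release 115 for dm6, without transposable elements, and sequence from the RefSeq dm6 assembly. Other Wnt genes named are those with the 10 highest-scoring IDR summits, and others were named after their values were seen. The replicate peak is the highest-scoring one that overlaps by at least 1 bp. Taking the one with the nearest summit was added after seeing the data. Summit classes took promoters (500 bp from any TSS) first, then coding exons, UTRs, other exons, introns and intergenic positions. No p-value was computed. The assignment of summits to genes was tested on simulated summits. Alternatives are other upstream windows, interval overlap, the 1499 strongest IDR peaks, each replicate alone, and other TSS and motif windows. The dm3 lists were not used here. Python 3.11.15, pandas 2.3.3 and matplotlib 3.10.9 were used.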

Additional observations from a re-analysis of the deposited data

How the results depend on the processing

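Of 48 alternative settings of the counts described, 35 left a count within 1.5 times its value. Among the 1499 strongest IDR peaks, 3 of the 10 genes (sgg, fz and nkd) held a summit, with 4 summits in all, 2 genes had one near an own TSS, 1 summit had GAGAG, 8 other Wnt genes held one, and 11.7% of all genes did. Counting the gene span alone lowered the share of all genes with a summit from 20.3% to 8.5%. By the same count, 6 of the 10 genes held a summit, with 11 summits in all. These 6 genes are all of 20 kb and over, while 10461 of all 13945 genes are under 5 kb, so the 2 changes are not comparable. GAGAG was at 1 summit within 50 bp, at 8 within 250 bp and, an alternative chosen after seeing the data, at 47 of the pooled summits. Of the 14 IDR peaks, 8 were among the 2999 strongest of both replicates, by the strongest overlapping peak or, chosen after seeing the data, the one with the nearest summit. With each replicate left out in turn, 5 to 6 genes held 12 to 15 summits, 3 to 4 genes had one near an own TSS, 12 to 20 other Wnt genes held one, and 19.9% of all genes did in both cases. Merging overlapping peaks, also chosen after seeing the data, left 13 summits.

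No paired analysis was possible because there is 1 group. The files hold no read numbers, so whether depth limits the weak peaks at wg, Axn, Apc and arm was not tested. The pooled list includes background, and the rank of a weak peak could differ widely between replicates, as for the highest Apc peak (4016 and 10655). Of the 176 pooled summits at the 10 genes, the 14 IDR summits included, 111 were overlapped in both replicates' lists and 3 in neither. The share over all 30000 pooled peaks was not computed, so whether these counts are usual for the list is unknown.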
